A study of Mus musculus with 24 samples.

Results

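Subcutaneous white adipose tissue (sWAT) of 6 female wild-type (WT) mice was compared with that of 6 male WT mice by RNA-Seq. These 12 mice were taken from a series of 24 by their labels, which give sex and genotype, and the other 12 mice were whole-body Gdf15 knockouts (Gdf15-KO), 6 of each sex. WT animals were littermates of the knockouts on a C57BL/6/129/SvJ background, aged 20 weeks, fed chow ad libitum and killed at lights off in the fed state. The Gdf15-KO females and males, of the same age and feeding, served as a second set of mice in which the same difference between the sexes could be read. GDF15, the stress-induced hormone that these knockouts lack, was intact in all 12 WT mice. Litters, the females' stage of the oestrous cycle and the order of dissection were not given in the sources used here, so a difference between the groups cannot be told apart from one in these. Values are CPM of bulk sWAT, read counts scaled to the size of the library and between libraries with the TMM method. How much of the fat pad was taken is not given in the sources used here. In such bulk RNA, fewer cells of a type and less RNA per cell cannot be told apart. Only autosomal genes were described.

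The libraries held 23340858 to 23963487 counts in WT females and 22521358 to 23855903 counts in WT males, and no pair was a duplicate of the other. The 4 Y-linked genes tested summed to 0 to 1.07 CPM in WT females and 182 to 211 CPM in WT males, which matched the labels. The pads were fat: Adipoq, the adipocyte hormone adiponectin, stood at 1149 to 1795 CPM in WT females and 1404 to 2018 CPM in WT males. Lep, which encodes leptin, stood at 254 to 603 CPM in WT females and 396 to 1120 CPM in WT males. Several libraries stood apart. In WT female 4, 387 autosomal genes were at least 2-fold above every other WT female, against 2 to 22 genes in the other 5 WT females. Calca, Fbn2 and Wfdc18 were among them, as were the basal keratins Krt5 and Krt14. WT female 6 held almost no skeletal muscle RNA, with a sum of 40.6 CPM over 17 muscle genes against 6135 to 19140 CPM in the other WT females. In WT males the same sum ran from 274 to 42420 CPM, highest in males 1, 2 and 3. WT males 3, 4 and 6 carried a trace of Krt8 and Krt5 RNA, above that of the other WT males, and WT male 4 also had 66 autosomal genes at least 2-fold above every other WT male. Results that rest on these libraries are given with and without them. Calls of named genes that were lost under other processing are listed in the last section. The removals of males 1, 2 and 3 together and of males 3, 4 and 6 together were chosen after the data were seen.

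The fat pad under the skin of a female mouse houses the mammary gland. Its ducts have an inner, luminal layer of secretory and hormone-sensing cells and an outer, basal layer of contractile myoepithelial cells, both resting on a basement membrane. In male mice most of it regresses before birth. Around the ducts, adipocytes store triglyceride, synthesise fatty acids after a meal and release them by lipolysis under the control of catecholamines, insulin and sex steroids. Macrophages, lymphocytes, vessels, nerves and fibroblasts fill the stroma.

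Of 14413 autosomal genes tested, 2143 (14.9%) were higher and 1331 (9.23%) lower in WT females than in WT males at an adjusted p under 0.05. These shares are the background for each list count in WT mice given below. At least 2-fold, 860 genes (5.97%) were higher and 155 (1.08%) lower, and 322 genes were higher by over 3 log2 units against 9 lower by as much. The median log2 difference over all autosomal genes was -0.014. In the Gdf15-KO mice, which share no animal with the WT groups, 2533 genes (17.6%) were higher and 2081 (14.4%) lower in females. The Gdf15-KO shares are the background for the list counts in those mice. Of the 3474 WT calls, 3456 had the same sign in the Gdf15-KO mice and 2725 were called there too. These are 78.4% of the WT calls and 59.1% of the Gdf15-KO calls. No gene was called in opposite directions. A test of whether the difference between the sexes itself differed by genotype called 0 autosomal genes (0%, edgeR quasi-likelihood interaction test). At an unadjusted p under 0.05 the interaction held 502 genes (3.48%), DESeq2 and limma-voom also called 0, and the smallest adjusted p was 0.998. The number of genes lower in WT females fell with the loss of many of the mice. It was 984 without WT female 4, 1064 without WT male 1, 1068 without WT female 5 and 1071 without WT male 3. It was 846 without the 3 muscle-rich males and 959 without males 3, 4 and 6, but 1475 without WT male 4. With a muscle score in the model and no mouse left out it was 1472. What lowered it when mice were left out was not tested.

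**Figure D1:**
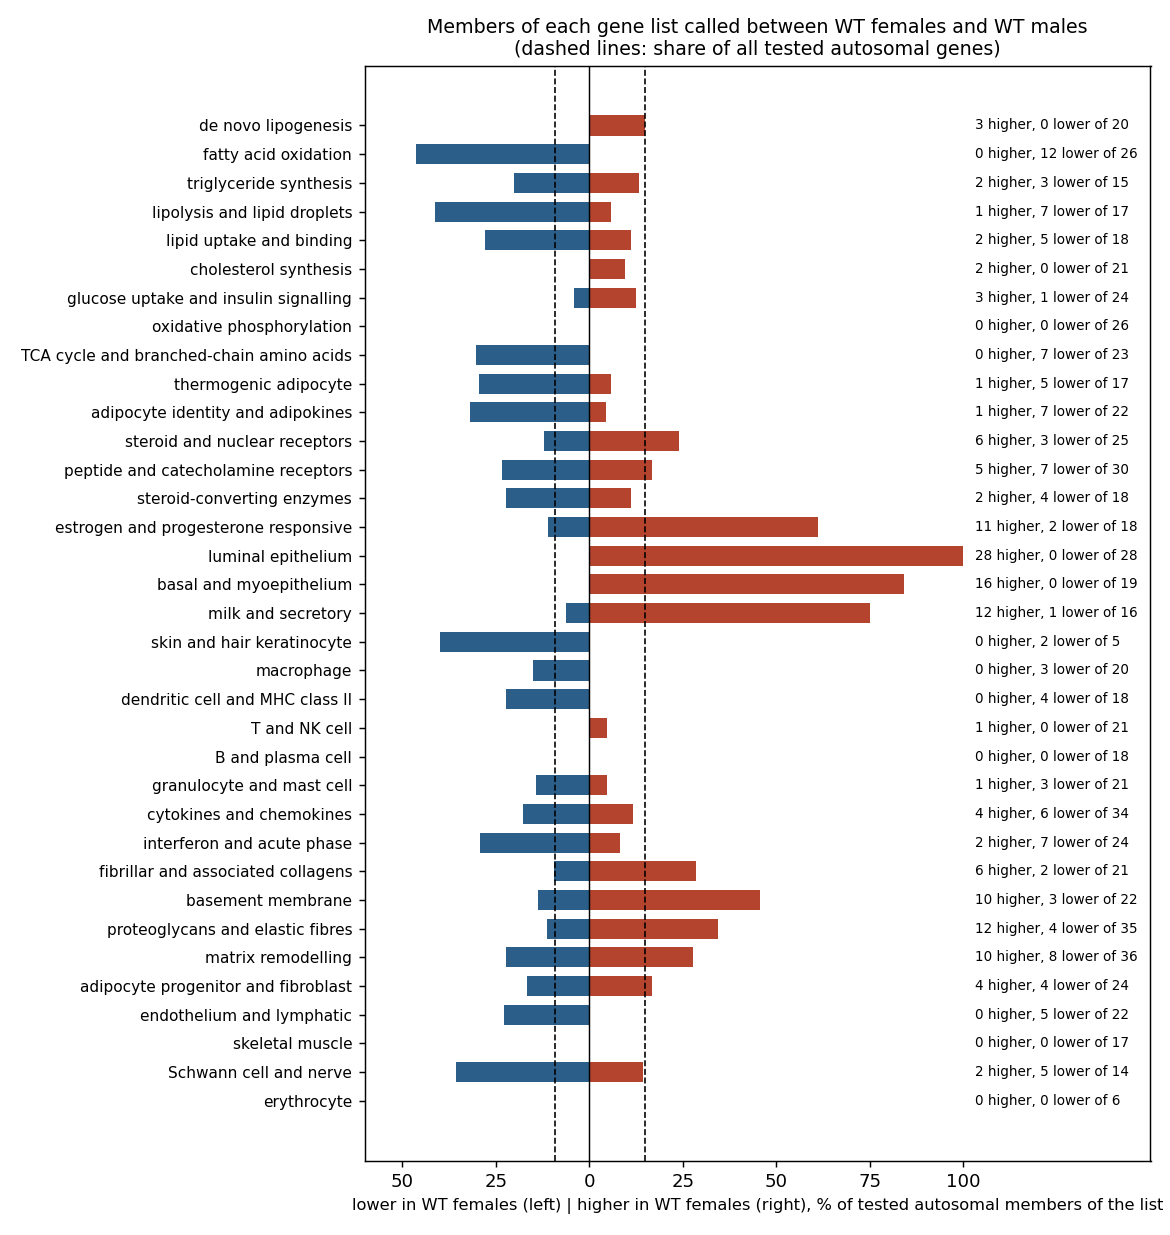
Share of tested members of each gene list that were higher (right) or lower (left) in WT females than in WT males at an adjusted p under 0.05, in percent, with the counts beside the bars. The dashed lines mark the share over all autosomal genes, 14.9% higher and 9.23% lower, and the 3 gland lists reach farthest to the right.

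The genes with the smallest p among those higher in WT females were Krt19, Prlr, Cldn4, Mlph, Mtmr7, Ptn, Cgn, Vill, Tmem30b, Lmx1b, Krt7 and Wwc1. Krt19 and Krt7 are keratins of simple epithelia, Cldn4 and Cgn belong to tight junctions, and Mlph links melanosomes and other organelles to myosin. Ptn (pleiotrophin, a secreted growth factor; gene ID 19242, chromosome 6 from 36680960 to 36796991 of GRCm39) had 119 to 221 (median 208) CPM in WT females and 3.59 to 5.99 (median 5.34) CPM in WT males (log2 difference 5.22, SE 0.22, adjusted p = 2.42e-14). Every WT female lay above every WT male for each of these 12 genes, which their choice by p in the same mice made likely. The WT groups did not overlap for 11.9% of all autosomal genes. Lmx1b, a LIM homeobox transcription factor, stood at 17.5 to 39.3 CPM in WT females and 0.805 to 1.498 CPM in WT males (log2 difference 4.63, SE 0.21, adjusted p = 5.78e-14).

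The 12 genes with the smallest p among those lower in WT females were Sult1e1, C7, Serpine2, Hp, Gnal, Prkg2, Tdo2, Serpina3n, Podn, Col4a3, Cers4 and Ccdc71l. They hold no epithelial marker of the lists used here. Serpine2, a secreted inhibitor of serine proteases, had 18.1 to 25.5 (median 21.002) CPM in WT females and 69.9 to 108 (median 91.9) CPM in WT males (log2 difference -2.07, SE 0.15, adjusted p = 1.46e-10). Gnal, the G protein alpha subunit of the olfactory type, was at 2.45 to 4.19 (median 3.06) CPM in WT females and 9.63 to 27.2 (median 16.1) CPM in WT males (log2 difference -2.46, SE 0.22, adjusted p = 7.75e-09). Podn, a small leucine-rich proteoglycan, and Cers4, a ceramide synthase, were lower by less, with log2 differences of -1.25 and -0.89, and neither overlapped between the sexes. Tdo2, which opens the ring of tryptophan, was nearly silent in WT females (0.0446 to 0.529 CPM in WT females, against 1.95 to 4.25 CPM in WT males; log2 difference -3.26, SE 0.33, adjusted p = 5.21e-08).

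All 28 luminal markers tested were higher in WT females, with a median log2 difference of 5.52, and all 28 were also called in the Gdf15-KO mice (median 5.76). The groups did not overlap for 27 of them, against 11.9% of all autosomal genes. Markers near 0 in males entered the test through the females, which made calls and non-overlap likely. With a filter of 10 counts in every sample, 15 luminal markers were called higher. Summed, the luminal list reached 1642 to 2872 CPM in WT females and 146 to 211 CPM in WT males. Krt8, a keratin of simple epithelia (gene ID 16691, chromosome 15 from 101905133 to 101912917), had 232, 266, 149, 295, 159.7 and 168 CPM in WT females 1 to 6, against 0.147, 0.0897, 2.05, 3.06, 0 and 1.46 CPM in WT males 1 to 6. The males fell into a set near 0 and a set of 3 (males 3, 4 and 6) above 1 CPM, and none came near a female. The log2 difference for Krt8 was 7.53 (SE 0.49, adjusted p = 3.2e-11). Its partner Krt18 behaved alike, with 186 to 281 (median 213) CPM in WT females and 0.147 to 2.98 (median 1.002) CPM in WT males. Epcam and Cdh1, the adhesion proteins of epithelial cells, were not silent in males: Epcam had 82.9 to 214 CPM in WT females and 1.32 to 2.53 CPM in WT males. Cdh1 had 79.9 to 152 CPM in WT females and 1.27 to 4.22 CPM in WT males.

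The transcription factors of the luminal lineages showed 2 patterns across the females. Foxa1, which opens chromatin for oestrogen receptor alpha in hormone-sensing cells, had 49.4 to 119 (median 86.4) CPM in WT females and 0 to 1.28 (median 0.288) CPM in WT males (log2 difference 7.62, SE 0.46, adjusted p = 7.79e-12). Elf5, the factor of the secretory alveolar lineage, had 10.7, 8.66, 15.9, 64.1, 14.02 and 13.2 CPM in WT females 1 to 6, against 0 to 0.394 CPM in WT males. Elf5 thus had a log2 difference of 7.04 (SE 0.72, adjusted p = 6.48e-08). WT female 4 was 4.04-fold above the next female for Elf5 and inside their range for Foxa1. Gata3, needed to keep luminal cells differentiated but also made by lymphocytes, had 58.5 to 91.9 CPM in WT females, against 3.27 to 6.61 CPM in WT males (log2 difference 3.98, SE 0.20, adjusted p = 2.72e-13).

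**Figure D2:**
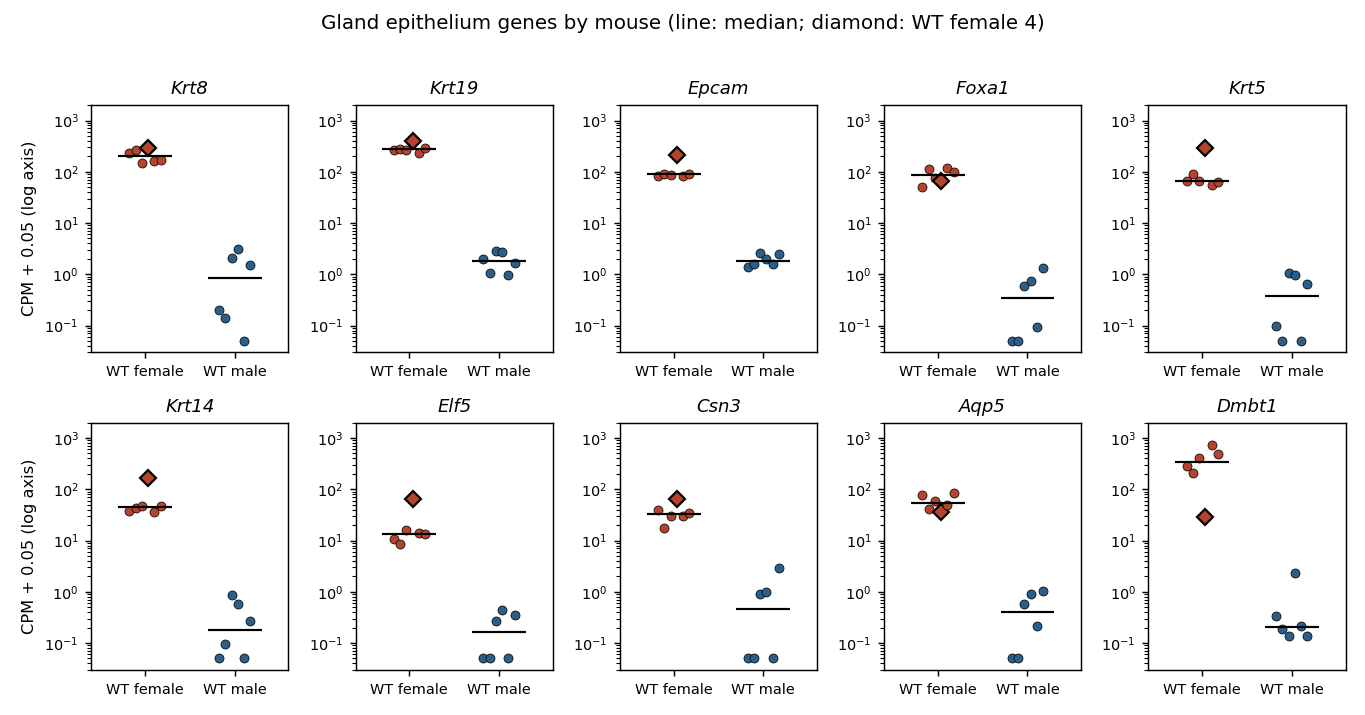
Levels of 10 gland genes in each mouse, as CPM plus 0.05 on a log axis, with WT females left and WT males right; each point is a mouse, the line is the median, and the diamond is WT female 4. Every WT female is above every WT male for all 10 genes, and WT female 4 is the highest female for Krt5, Krt14, Elf5 and Csn3, among others, but the lowest for Dmbt1.

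Of 19 basal and myoepithelial markers tested, 16 were higher and 0 lower in WT females (median log2 difference 2.85), and 18 were higher in the Gdf15-KO mice. With 10 counts asked of every sample, 8 were called higher in WT females. Krt5, the basal keratin (gene ID 110308, chromosome 15 from 101615505 to 101621346), had 65.02, 91.7, 67.2, 297, 56.3 and 63.3 CPM in WT females 1 to 6, against 0.0489, 0, 1.02, 0.919, 0 and 0.599 CPM in WT males 1 to 6. For Krt5 the log2 difference was 7.92 (SE 0.65, adjusted p = 1.43e-09). WT female 4 was 3.24-fold above the next female, and the highest Gdf15-KO female had 173 CPM. Krt14 had 35.4 to 163 CPM in WT females and 0 to 0.8003 CPM in WT males. Krt17, whose reads may be split with those of near-identical copies, had 12.2 to 62.1 CPM in WT females and 0.0449 to 0.267 CPM in WT males. Krt15 had 2007 counts in WT females and 1 count in WT males. The ratio of these depth-scaled counts had a 95% interval of 347 to 76382, which covers counting error only. The contractile genes, which smooth muscle of vessels also expresses, were present in both sexes. Acta2, smooth muscle actin, had 188 to 675 (median 254) CPM in WT females and 99.1 to 167 (median 119) CPM in WT males (log2 difference 1.32, SE 0.26, adjusted p = 0.000525). Cnn1, calponin, had 18.8 to 56.5 CPM in WT females and 2.01 to 9.603 CPM in WT males (log2 difference 2.85, SE 0.35, adjusted p = 1.23e-06). Mylk, the myosin light chain kinase of smooth muscle, had 87.3 to 183 CPM in WT females and 69.7 to 92.8 CPM in WT males and did not pass the test (adjusted p = 0.0996). Lgr5, a receptor for R-spondins found on some basal cells, had 6.68 to 12.9 CPM in WT females and 0.381 to 1.798 CPM in WT males (log2 difference 3.01, SE 0.32, adjusted p = 1.4e-07).

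Of 16 milk and secretory genes tested, 12 were higher and 1 lower in WT females, with a median log2 difference of 3.68. The filter of 10 counts in every sample left 3 called higher. The caseins Csn1s1, Csn1s2a, Csn1s2b and Csn2 and the lactose synthase subunit Lalba were too low to be tested, as were Lpo, Cel and Olah. Csn3, kappa-casein, was measured, at 17.1 to 65.9 (median 32.3) CPM in WT females and 0 to 2.87 (median 0.422) CPM in WT males (log2 difference 5.50, SE 0.57, adjusted p = 7.55e-08). Aqp5, the water channel of glands, had 35.5 to 84.8 CPM in WT females, against 0 to 0.985 CPM in WT males. Btn1a1, the butyrophilin of milk fat globules, had 7.41 to 31.3 CPM in WT females, against 0 to 0.438 CPM in WT males. Neither overlapped between the sexes. Dmbt1, a scavenger-receptor protein of mucosal secretions (gene ID 12945, chromosome 7 from 130633776 to 130723357), had 288, 204, 408, 29.1, 744 and 489.9 CPM in WT females 1 to 6, against 0.0856 to 2.32 (median 0.152) CPM in WT males. In the model the log2 difference of Dmbt1 was 9.43 (SE 0.88, adjusted p = 1.47e-08). It ran over a wide range among the females and was lowest in WT female 4, the mouse with most Krt5. Wfdc18, a whey acidic protein family member, was at 6.17 to 102.9 CPM in WT females and 0 to 0.667 CPM in WT males. Glycam1, a mucin of milk and of lymph node venules, was at 76.1 to 171 CPM in WT females and 7.23 to 20.4 CPM in WT males. Slc12a2, the sodium, potassium and chloride cotransporter of secretory epithelia, had 223 to 999.7 (median 736) CPM in WT females and 36.4 to 59.5 (median 50.3) CPM in WT males (log2 difference 3.79, SE 0.39, adjusted p = 6.89e-08). Slc34a2, a phosphate transporter, had 78 counts in WT females and 0 in WT males, which makes it at least 25.04-fold higher with 3 counts over the group taken for the males. Lcn2 (lipocalin 2) and Ltf (lactoferrin), antibacterial proteins of milk and of neutrophils, were higher too, by 3.57 and 3.42 log2 units. Ltf overlapped only through WT male 5, which had 24.1 CPM. Spp1, osteopontin, was the exception, at 1.29 to 3.66 CPM in WT females and 3.43 to 6.54 CPM in WT males (log2 difference -1.45, SE 0.40, adjusted p = 0.0101), a call that was lost without either set of 3 males. Mfge8, the lactadherin of milk fat globules that macrophages also make, had 368 to 879.5 CPM in WT females and 320.2 to 454 CPM in WT males (adjusted p = 0.102).

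Markers of skin were checked because skin lies against this pad. Of 19 autosomal keratinocyte and hair genes, 14 were too low to be tested, among them Krt1, Krt2, Lor, Flg and Ivl. The list summed to 30.1 to 47.1 CPM in WT females and 39.2 to 63.4 CPM in WT males, most of it Sbsn. Krt10, the keratin of upper skin layers, was at 1.53 to 2.54 CPM in WT females and 1.18 to 2.59 CPM in WT males. Of the 5 tested, Krtdap and Sbsn were lower in WT females, and the call for Sbsn was lost without WT male 1 and without either set of 3 males.

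Of 25 nuclear receptor genes tested, 6 (24%) were higher and 3 (12%) lower in WT females. Of 30 receptors for peptides and catecholamines, 5 (16.7%) were higher and 7 (23.3%) lower, against 14.9% and 9.23% of all autosomal genes. Pgr, Prlr and Oxtr, receptors for ovarian and pituitary hormones, differed by over 3 log2 units. Pgr, the progesterone receptor and a textbook target of oestrogen (gene ID 18667, chromosome 9 from 8899830 to 8968612), had 64.2, 17.4, 20.9, 24.02, 42.3 and 34.9 CPM in WT females 1 to 6, against 0, 0, 0.133, 0.438, 0 and 0.214 CPM in WT males 1 to 6. Pgr gave a log2 difference of 7.94 (SE 0.65, adjusted p = 1.51e-09). In males it was counted only in males 3, 4 and 6, the 3 males above 1 CPM of Krt8. Esr1, oestrogen receptor alpha (gene ID 13982, chromosome 10 from 4561593 to 4955626), was expressed in both sexes, at 149, 135, 126, 80.7, 126 and 109.6 CPM in WT females 1 to 6 and 67.3, 60.1, 70.6, 68.7, 75.5 and 65.5 CPM in WT males 1 to 6. WT female 4 had the least of the females and still lay above every WT male (log2 difference 0.83, SE 0.12, adjusted p = 1.82e-05). Esr2, oestrogen receptor beta, was too low to be tested. Gper1, the membrane oestrogen receptor, had 1.74 to 2.63 CPM in WT females and 2.54 to 4.86 CPM in WT males (log2 difference -0.60, SE 0.19, adjusted p = 0.0204). This call was lost without WT female 4, without WT male 4 and without either set of 3 males. Nr3c1, the glucocorticoid receptor, did not pass the test (150.4 to 251 CPM in WT females and 212 to 239.6 CPM in WT males, log2 difference -0.095, SE 0.10, adjusted p = 0.529).

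Esrrb, an orphan receptor related to the oestrogen receptors, had 5.62 to 25.8 CPM in WT females and 0.171 to 0.744 CPM in WT males (log2 difference 4.85, SE 0.48, adjusted p = 3.67e-08). Vdr, the vitamin D receptor, had 12.9, 14.1, 16.5, 48.9, 13.8 and 14.8 CPM in WT females 1 to 6, against 0.845 to 4.11 CPM in WT males (log2 difference 3.50, SE 0.43, adjusted p = 1.02e-06), and WT female 4 again stood alone. Retinoid receptors moved in opposite directions. Rarg, retinoic acid receptor gamma, was higher in WT females (log2 difference 0.44, adjusted p = 0.000249). Rxrg, retinoid X receptor gamma, was lower, at 7.44 to 11.8 CPM in WT females against 13.5 to 21.3 CPM in WT males. The test gave Rxrg a log2 difference of -0.73 (SE 0.17, adjusted p = 0.00217). The lower count of 3 fell to 1 without WT female 4 or without either set of 3 males.

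Prlr, the receptor through which prolactin drives gland growth and milk synthesis (gene ID 19116, chromosome 15 from 10177258 to 10349959), had 292, 250.4, 266, 204, 343 and 285 CPM in WT females 1 to 6, against 4.89, 4.62, 4.45, 6.04, 3.64 and 6.46 CPM in WT males 1 to 6. Prlr thus had a log2 difference of 5.77 (SE 0.22, adjusted p = 2.79e-15). The highest mouse had 1.69 times the lowest among WT females and 1.77 times among WT males. Oxtr, the oxytocin receptor of myoepithelium and of adipocytes, had 90.5 to 429.6 (median 151) CPM in WT females and 16.7 to 30.6 (median 21.7) CPM in WT males (log2 difference 3.15, SE 0.39, adjusted p = 1.53e-06). Agtr1a, an angiotensin II receptor, had 24.1 to 91.2 (median 47.9) CPM in WT females and 11.8 to 18.2 (median 14.3) CPM in WT males (log2 difference 1.83, SE 0.24, adjusted p = 2.6e-06). Igf1r, the receptor of insulin-like growth factor 1, was higher by 0.44 log2 units (adjusted p = 0.000494) with no overlap. Ghr, the growth hormone receptor, had 381 to 642 CPM in WT females and 531 to 720.1 CPM in WT males (adjusted p = 0.247). Lepr, the leptin receptor, had 25.6 to 42.1 CPM in WT females and 23.5 to 52.5 CPM in WT males (adjusted p = 0.605). Neither passed the test, nor did Adipor2, a receptor of adiponectin (adjusted p = 0.956). Npr3, the clearance receptor for natriuretic peptides, was lower (log2 difference -0.94, SE 0.32, adjusted p = 0.0368), a call lost without WT female 2, 4 or 5 or without WT male 3, 4 or 6 or without WT males 3, 4 and 6 together.

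Adrenergic receptors set the adipocyte's answer to noradrenaline: beta types raise cyclic AMP and lipolysis, alpha-2 types lower it and alpha-1 types act through calcium. Adra1b was lower in every WT female (3.22, 2.32, 3.88, 1.94, 2.95 and 3.32 CPM in WT females 1 to 6, against 7.82, 7.45, 8.71, 7.13, 4.83 and 6.64 CPM in WT males 1 to 6; log2 difference -1.27, SE 0.18, adjusted p = 1.12e-05). Adra2c was lower at a far lower level (0.402 to 0.619 CPM in WT females, against 0.656 to 1.47 CPM in WT males; log2 difference -1.001, SE 0.24, adjusted p = 0.00348). Adrb3, the main beta receptor of mouse adipocytes, had 165 to 275 (median 236) CPM in WT females and 192 to 355 (median 289) CPM in WT males (log2 difference -0.27, SE 0.16, adjusted p = 0.224). Adra1a, Adra1d, Adra2a, Adra2b and Adrb1 did not pass the test either, with log2 differences of 0.66, -0.40, 0.19, -0.46 and -0.19. Adra1a passed with each genotype alone and Adra1d with the replicate number as a block. In the whole list of 30 peptide and catecholamine receptors, the lower count of 7 became 4 without WT male 3 or WT male 6.

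**Figure D3:**
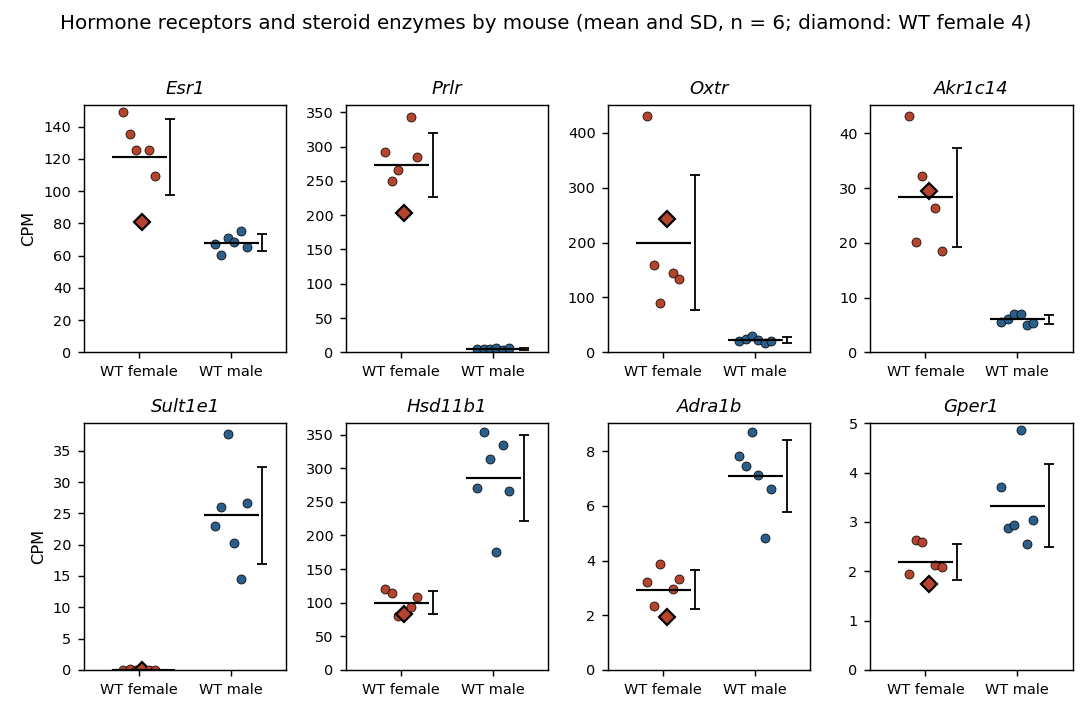
Levels in CPM of 8 receptor and steroid enzyme genes in each mouse, WT females left and WT males right; points are mice, the line and bar are the mean and SD (n = 6), and the diamond is WT female 4. Sult1e1 is at 0 to 0.0892 CPM in WT females and 14.6 to 37.6 CPM in WT males, while Prlr and Oxtr show the opposite order.

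Of 18 steroid-converting enzymes tested, 2 (11.1%) were higher and 4 (22.2%) lower in WT females, against 14.9% and 9.23% of all autosomal genes. Sult1e1, the sulfotransferase that inactivates oestrogens (gene ID 20860, chromosome 5 from 87723828 to 87739461), had 0, 0.0892, 0, 0, 0 and 0 CPM in WT females 1 to 6, against 22.97, 26.1, 37.6, 20.3, 14.6 and 26.7 CPM in WT males 1 to 6. That is 2 counts in 6 female libraries and 3328 in 6 male libraries, a female to male ratio with a 95% interval of 7.01e-05 to 0.00209 for counting error. Hsd11b1, which regenerates active glucocorticoid inside cells (gene ID 15483, chromosome 1 from 192903918 to 192946489), had 119.7, 115, 79.6, 83.8, 93.3 and 109 CPM in WT females 1 to 6, against 270.2, 354, 313, 175, 335 and 266 CPM in WT males 1 to 6. For Hsd11b1 the log2 difference was -1.51 (SE 0.18, adjusted p = 6.94e-07). The highest female was below the lowest male. Srd5a1, a steroid 5-alpha-reductase, was lower as well, at 2.38 to 4.08 CPM in WT females and 3.98 to 6.802 CPM in WT males (log2 difference -0.86, SE 0.19, adjusted p = 0.00205). Akr1c14 and Akr1c18, aldo-keto reductases that act on dihydrotestosterone and progesterone, were higher: Akr1c14 had 18.4 to 43.3 (median 27.9) CPM in WT females and 5.08 to 7.04 (median 5.79) CPM in WT males (log2 difference 2.24, SE 0.26, adjusted p = 4.92e-07). Akr1c18 had 9.11 to 15.7 CPM in WT females and 3.01 to 5.42 CPM in WT males. Their sequences are alike, so reads may be split between them. Cyp19a1, the aromatase, Cyp17a1 and 7 other enzymes of the list were too low to be tested.

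Of 18 genes listed as responsive to oestrogen or progesterone, 11 were higher and 2 lower in WT females (median log2 difference 0.98). Without WT males 3, 4 and 6, 1 was lower, and in the Gdf15-KO mice 8 were higher and 3 lower. A filter of 10 counts in every sample left 5 called higher in WT females. Many of these genes are also made by gland epithelium. Areg, the amphiregulin of oestrogen-driven duct growth, had 55.99, 8.48, 9.79, 99.1, 17.3 and 23.6 CPM in WT females 1 to 6, against 0 to 0.35003 CPM in WT males (log2 difference 8.46, SE 1.05, adjusted p = 1.46e-06), and females 1 and 4 were the highest. Wnt4, which relays progesterone between cells, had 27.8, 21.4, 29.4, 36.4, 36.6 and 29.7 CPM in WT females 1 to 6, against 4.79, 2.56, 1.82, 0.394, 0.127 and 0.471 CPM in WT males 1 to 6. In the model the log2 difference of Wnt4 was 4.18 (SE 0.50, adjusted p = 7.75e-07). Unlike Krt8, it was highest among males in males 1, 2 and 3. Greb1, an early oestrogen target, had 2.32 to 20.4 CPM in WT females and 0.127 to 0.438 CPM in WT males (log2 difference 4.87, SE 0.77, adjusted p = 3.75e-05). Ccnd1, cyclin D1, had 93.8 to 205 CPM in WT females and 54.1 to 84.9 CPM in WT males (log2 difference 0.83, SE 0.17, adjusted p = 0.000973). Calca, the calcitonin gene, had 0.881, 1.29, 2.35, 106, 1.46 and 2.51 CPM in WT females 1 to 6, against 0.438 to 0.856 CPM in WT males. Its log2 difference of 4.88 (adjusted p = 0.00175) was 1.40 without WT female 4 (adjusted p = 0.0476), and the call was lost with limma-voom. Ctsd, cathepsin D, did not pass the test (1241 to 1792 CPM in WT females and 1153 to 1784 CPM in WT males, adjusted p = 0.998).

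Genes of fatty acid oxidation were lower in WT females or did not pass the test. Of 26 tested, 12 were lower and 0 higher (median log2 difference -0.35), and in the Gdf15-KO mice 19 were lower and 0 higher (median -0.42). Acadm, the medium-chain dehydrogenase of beta-oxidation (gene ID 11364, chromosome 3 from 153627989 to 153650317), had 223, 249.6, 219, 162, 208 and 205 CPM in WT females 1 to 6, against 353, 303, 362, 246, 337 and 306 CPM in WT males 1 to 6. Acadm gave a log2 difference of -0.59 (SE 0.12, adjusted p = 0.000523). Only the highest female and the lowest male overlapped. Hadh and Acaa2, which catalyse the last steps of the cycle, had log2 differences of -0.53 and -0.56 (adjusted p = 0.00193 and 0.00156). Acsl1, which activates long-chain fatty acids, had 1356 to 2203 CPM in WT females and 1072 to 2307 CPM in WT males (adjusted p = 0.666). The count of 12 became 3 without WT males 1, 2 and 3 together, 7 without WT male 1 or 3 and 20 without WT male 4. Skeletal muscle also oxidises fatty acids, and its sum was highest in males 1, 2 and 3; with a muscle score in the model 11 genes were lower. Cpt1b, the carnitine transferase of muscle and brown fat, had a log2 difference of -1.38, and its call (adjusted p = 0.0354) was lost without WT female 1, 4 or 6 or without WT male 1 or 3 or without WT males 1, 2 and 3 together.

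The TCA cycle and branched-chain amino acid list held 7 genes lower and 0 higher of 23 tested, with 10 lower in the Gdf15-KO mice. Idh2, the mitochondrial isocitrate dehydrogenase that makes NADPH (gene ID 269951, chromosome 7 from 79741431 to 79765535), had 92.9, 94.01, 111, 89.8, 91.3 and 92.7 CPM in WT females 1 to 6, against 156, 124, 150.5, 128, 150.4 and 157 CPM in WT males 1 to 6. The test gave Idh2 a log2 difference of -0.60 (SE 0.07, adjusted p = 1.33e-06). The groups were apart. Mccc2, a subunit of the leucine pathway's carboxylase, was apart too, at 40.7 to 71.7 CPM in WT females and 82.7 to 98.7 CPM in WT males (log2 difference -0.60, SE 0.12, adjusted p = 0.000683). The count of 7 became 2 without WT males 1, 2 and 3 together and 4 without WT male 1. No oxidative phosphorylation gene of 26 passed the test in WT mice (2 were lower at an unadjusted p under 0.05, and 1 by DESeq2). A negative log2 difference was seen for 25 of them (median -0.16), and 12 were lower in the Gdf15-KO females. Atp5b, the ATP synthase beta subunit, had 1228 to 1759 CPM in WT females and 1236 to 1932 CPM in WT males (adjusted p = 0.388). Without a library the count of 0 became 1 without WT female 1, 3 without WT female 2, 4 without WT males 3, 4 and 6 together and 5 without WT male 4.

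Genes of lipid droplets and lipolysis were lower in WT females for 7 of 17 tested and higher for 1 (median log2 difference -0.38), with 13 lower in the Gdf15-KO mice. Plin5, the perilipin that ties droplets to mitochondria (gene ID 66968, chromosome 17 from 56418446 to 56424610), had 8.94, 6.78, 6.32, 5.34, 5.78 and 4.72 CPM in WT females 1 to 6, against 17.7, 9.51, 19.6, 10.46, 14.4 and 12.9 CPM in WT males 1 to 6. Plin5 thus had a log2 difference of -1.16 (SE 0.22, adjusted p = 0.00028). Cidea, which fuses droplets in brown and beige adipocytes, had 26.2 to 59.9 (median 43.3) CPM in WT females and 47.7 to 128 (median 97.2) CPM in WT males (log2 difference -1.17, SE 0.22, adjusted p = 0.000401), and overlapped only through WT male 4. Plin1, the main coat of the adipocyte's droplet, had 479 to 928 CPM in WT females and 928 to 1311 CPM in WT males (log2 difference -0.51, SE 0.14, adjusted p = 0.0102). Plin4, of the same family, had 1082 to 2442 CPM in WT females and 2068 to 3774 CPM in WT males (log2 difference -0.88, SE 0.21, adjusted p = 0.00257). Both calls were lost without males 3, 4 and 6, and that for Plin1 also without males 1, 2 and 3. G0s2, an inhibitor of the triglyceride lipase, was lower (log2 difference -0.89, adjusted p = 0.00353). That lipase itself, Pnpla2, had 1695 to 2592 CPM in WT females and 2498 to 2870 CPM in WT males and did not pass (adjusted p = 0.206). The lower count of 7 became 3 without WT males 3, 4 and 6 together, and the higher count of 1 became 0 without WT female 2, 3 or 4 or without WT male 1, 2 or 3 or without WT males 3, 4 and 6 together or without WT males 1, 2 and 3 together.

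Of 17 genes of thermogenic adipocytes, 5 were lower and 1 higher in WT females. Otop1, a proton channel of brown fat, had 3.802 to 8.16 CPM in WT females and 5.65 to 22.3 CPM in WT males (log2 difference -1.48, SE 0.32, adjusted p = 0.00152). Prdm16, a transcriptional regulator of brown and beige fat, had 13.3 to 17.2 CPM in WT females and 16.999 to 32.3 CPM in WT males (log2 difference -0.66, SE 0.16, adjusted p = 0.00314). The 1 gene higher was Ckmt1, a mitochondrial creatine kinase also made by epithelia, with 2.73 to 6.67 CPM in WT females and 0 to 0.0875 CPM in WT males from 7 counts. The lower count became 3 without WT female 1, 4 or 6 or without WT male 1 or 3 or without WT males 1, 2 and 3 together, and the higher count 2 without WT female 4.

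**Figure D4:**
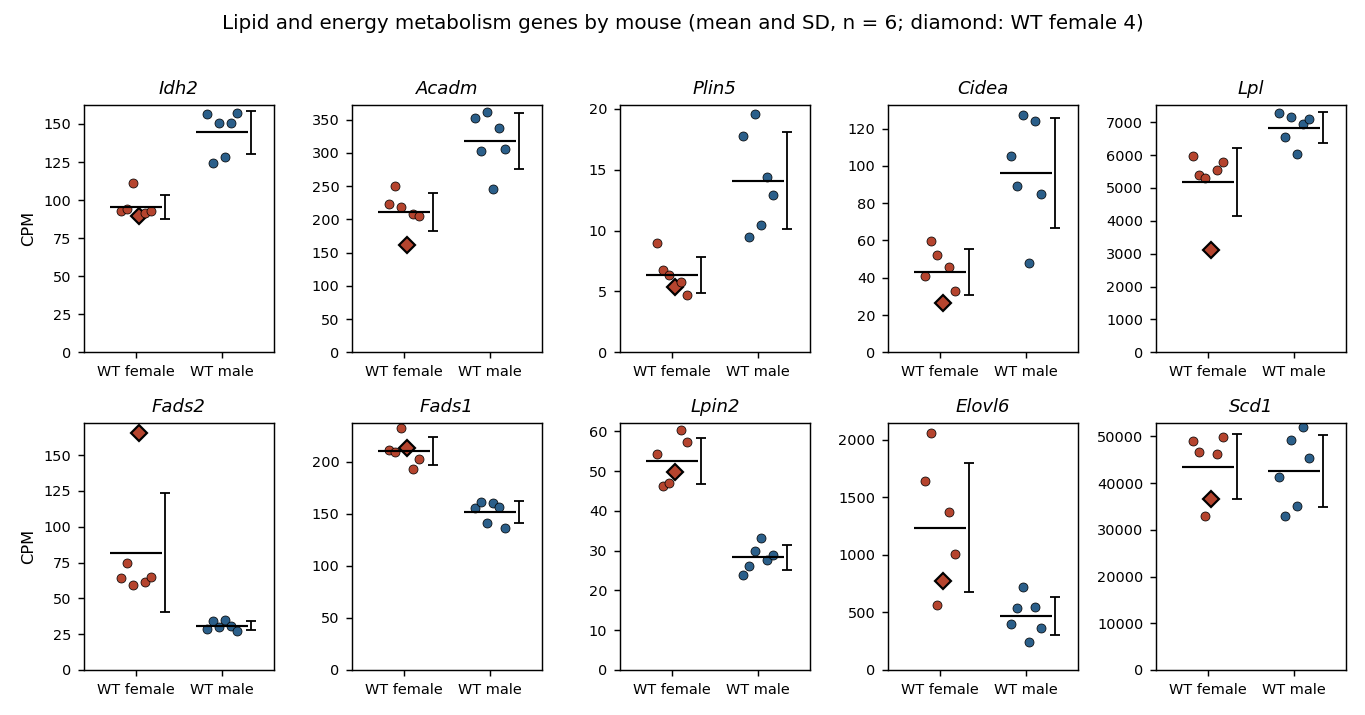
Levels in CPM of 10 lipid and energy metabolism genes in each mouse, WT females left and WT males right; points are mice, the line and bar are the mean and SD (n = 6), and the diamond is WT female 4. Idh2, Plin5 and Lpl are lower in every WT female than in every WT male, Fads1, Fads2 and Lpin2 are higher, and Scd1 overlaps fully.

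No gene of fatty acid synthesis was called lower. Of 20 genes of de novo lipogenesis and its desaturases and elongases, 3 (15%) were higher and 0 lower in WT females. The shares over all autosomal genes were 14.9% and 9.23%. In the Gdf15-KO mice 2 genes of this list were higher. Fads2, the delta-6 desaturase of polyunsaturated fatty acids (gene ID 56473, chromosome 19 from 10038130 to 10079203), had 64.1, 74.4, 59.5, 166, 61.5 and 64.8 CPM in WT females 1 to 6, against 28.4, 34.4, 30.1, 34.8, 30.5 and 27.4 CPM in WT males 1 to 6. For Fads2 the log2 difference was 1.40 (SE 0.21, adjusted p = 2.64e-05). WT female 4 stood above the rest, and the other 5 females were still above every male. Fads1, its neighbour and the delta-5 desaturase, had 193 to 233 (median 210.3) CPM in WT females and 136 to 162 (median 156) CPM in WT males (log2 difference 0.47, SE 0.09, adjusted p = 0.000269). Elovl6, which elongates palmitate, spread widely among females, at 1640, 2057, 564, 773, 1372 and 1010 CPM in WT females 1 to 6, against 402, 536, 722, 245, 545 and 362 CPM in WT males 1 to 6. In the model the log2 difference of Elovl6 was 1.40 (SE 0.45, adjusted p = 0.0256). Its call was lost without WT female 2, WT male 4 or WT male 6, and without either set of 3 males. The abundant enzymes did not pass the test. Fasn, the fatty acid synthase, had 14527 to 35835 CPM in WT females and 14080 to 21036 CPM in WT males (adjusted p = 0.201). Acly, which supplies cytosolic acetyl-CoA, had 1350 to 5462 CPM in WT females and 1579 to 2924 CPM in WT males (adjusted p = 0.211). Scd1 had 33008 to 49851 CPM in WT females and 32956 to 52023 CPM in WT males (adjusted p = 0.932).

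In triglyceride synthesis 2 of 15 genes (13.3%) were higher and 3 (20%) lower, against 14.9% and 9.23% of all autosomal genes. Lpin2, a phosphatidate phosphatase, had 54.4, 46.3, 47.1, 49.7, 60.4 and 57.4 CPM in WT females 1 to 6, against 23.8, 26.1, 29.8, 33.2, 27.8 and 28.98 CPM in WT males 1 to 6. Lpin2 gave a log2 difference of 0.89 (SE 0.14, adjusted p = 2.89e-05). Gpam, the mitochondrial acyltransferase of the first step, was higher by 0.66 log2 units (adjusted p = 0.0153; lost without males 3, 4 and 6). Gpat4, the enzyme of the same step in the endoplasmic reticulum, had a log2 difference of -0.30 (adjusted p = 0.0195; lost without WT female 4 or without WT male 3 or without WT males 1, 2 and 3 together). Dgat2, which adds the last acyl chain, had 1113 to 2960 CPM in WT females and 2204 to 2555 CPM in WT males (adjusted p = 0.863). The lower count of 3 became 1 without WT female 4 or without WT male 3, 5 or 6 or without WT males 3, 4 and 6 together or without WT males 1, 2 and 3 together, and the higher count of 2 became 1 without WT males 3, 4 and 6 together.

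Among 18 genes of lipid uptake and binding, 5 (27.8%) were lower and 2 (11.1%) higher, against 9.23% and 14.9% of all autosomal genes. Lpl, the lipase that frees fatty acids from circulating triglyceride, had 5958, 5389, 5290, 3116, 5548 and 5782 CPM in WT females 1 to 6, against 7271, 6539, 7149, 6017, 6940 and 7095 CPM in WT males 1 to 6. No female reached the lowest male, and WT female 4 was lowest by far, but the test passed narrowly (log2 difference -0.40, SE 0.14, adjusted p = 0.0418) and was lost without WT female 3 or 4 or without WT male 1, 3, 5 or 6 or without WT males 3, 4 and 6 together or without WT males 1, 2 and 3 together. The call for Lpl was lost too with no filter on low counts, with 10 counts asked of every sample and with each genotype alone. Cd36, the fatty acid translocase, had 1433 to 1880 CPM in WT females and 1900 to 2524 CPM in WT males (log2 difference -0.37, SE 0.13, adjusted p = 0.0364), lost without WT female 4 or 5 or without WT male 1, 3, 5 or 6 or without WT males 3, 4 and 6 together or without WT males 1, 2 and 3 together. Fabp4, the adipocyte's fatty acid binding protein, had 1963 to 2919 CPM in WT females and 2421 to 4608 CPM in WT males (log2 difference -0.501, SE 0.16, adjusted p = 0.0285), lost without WT female 3 or 5 or without WT male 5 or without WT males 1, 2 and 3 together. Slc27a2, a fatty acid transporter better known from liver, was low in both sexes, at 0.223 to 1.32 CPM in WT females and 1.44 to 5.18 CPM in WT males (log2 difference -2.19, SE 0.51, adjusted p = 0.0025), and kept its call wherever it was tested. Slc27a4, its relative, was higher by 0.18 log2 units with no overlap (adjusted p = 0.0283; lost without WT female 2 or 5 or without WT male 2 or 5 or without WT males 3, 4 and 6 together or without WT males 1, 2 and 3 together). The lower count of 5 became 1 without WT male 5 or without WT males 1, 2 and 3 together, 2 without WT female 5 or without WT male 3 or 6 or without WT males 3, 4 and 6 together and 3 without WT female 3 or 4 or without WT male 1, and the higher count of 2 became 0 without WT female 2 or 5 or without WT male 5 or without WT males 3, 4 and 6 together and 1 without WT female 1 or 4 or without WT male 1, 2, 4 or 6 or without WT males 1, 2 and 3 together.

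For cholesterol synthesis 2 of 21 genes were higher and 0 lower. Sqle, the squalene epoxidase, had 19.8 to 47.3 CPM in WT females and 15.9 to 28.4 CPM in WT males (log2 difference 0.59, SE 0.18, adjusted p = 0.0216), a call lost without WT female 2 or without WT male 3 or 6 or without WT males 3, 4 and 6 together or without WT males 1, 2 and 3 together. The count of 2 became 0 without WT males 1, 2 and 3 together, 1 without WT female 2 or without WT male 3 or 6 or without WT males 3, 4 and 6 together and 5 without WT female 3. Of 24 genes of glucose uptake and insulin signalling, 3 were higher and 1 lower. Hk1, a hexokinase, had 85.2 to 95.6 CPM in WT females and 65.4 to 81.1 CPM in WT males (log2 difference 0.36, SE 0.06, adjusted p = 6.81e-05), and Irs1, an insulin receptor substrate, was higher by 0.60 log2 units (adjusted p = 0.0112; lost without males 3, 4 and 6). Pde3b, through which insulin lowers cyclic AMP in adipocytes, was the 1 lower gene (log2 difference -0.36, adjusted p = 0.035) and was lost without WT female 4 or without WT male 3 or 6 or without WT males 3, 4 and 6 together or without WT males 1, 2 and 3 together. These shares lay near or below the background of 14.9% and 9.23%.

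Of 22 adipocyte genes and adipokines, 7 were lower and 1 higher in WT females (median log2 difference -0.37), with 12 lower in the Gdf15-KO mice (median -0.52). Rarres2, the adipokine chemerin (gene ID 71660, chromosome 6 from 48546630 to 48549762), had 70.8, 91.5, 149.96, 75.02, 94.5 and 101 CPM in WT females 1 to 6, against 214, 159, 205, 187, 224 and 236 CPM in WT males 1 to 6. The test gave Rarres2 a log2 difference of -1.07 (SE 0.16, adjusted p = 1.83e-05). Sfrp5, a secreted inhibitor of Wnt ligands, had 6.31 to 13.4 (median 9.27) CPM in WT females and 16.1 to 35.9 (median 24.52) CPM in WT males (log2 difference -1.39, SE 0.29, adjusted p = 0.000849). Nnmt, which methylates nicotinamide, had 43.03 to 67.5 CPM in WT females and 77.4 to 101 CPM in WT males (log2 difference -0.70, SE 0.15, adjusted p = 0.000974). None of these 3 overlapped. Apoe, the lipoprotein of adipocytes and macrophages, was lower with an overlap (1572 to 2632 CPM in WT females and 2196 to 4259 CPM in WT males; log2 difference -0.74, SE 0.14, adjusted p = 0.000248). Adipoq, with the levels given above, had a log2 difference of -0.19 (SE 0.12, adjusted p = 0.283) and did not pass. Lep, at -0.65 (SE 0.26, adjusted p = 0.0757), and Cfd, adipsin, at -0.35 (adjusted p = 0.235), did not pass either. Lep passed with DESeq2, with a B cell score in the model, without WT male 2 and without males 1, 2 and 3 (adjusted p = 0.0251 to 0.423 over its alternatives). The higher count of 1 became 0 without WT female 3 or without WT males 3, 4 and 6 together. Summed, the list took 11151 to 18895 CPM in WT females and 16370 to 23771 CPM in WT males. The gland lists took 0.49% to 0.78% of counts in WT females and 0.12% to 0.16% in WT males, and their part in this result was not tested.

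Of 20 macrophage genes 3 (15%) were lower in WT females, of 18 dendritic cell and MHC class II genes 4 (22.2%) were lower, and none was higher in either list, against 9.23% lower and 14.9% higher of all autosomal genes. Gpnmb, a glycoprotein of lipid-laden macrophages, had 20.4 to 66.8 (median 32.6) CPM in WT females and 60.1 to 120.4 (median 71.5) CPM in WT males (log2 difference -1.03, SE 0.26, adjusted p = 0.0047). C1qc, a chain of complement C1q, had 153 to 215 CPM in WT females and 215 to 263 CPM in WT males (log2 difference -0.44, SE 0.13, adjusted p = 0.0155). Fcgr1, the high-affinity IgG receptor, had 7.63 to 10.9 CPM in WT females and 11.1 to 18.1 CPM in WT males (log2 difference -0.60, SE 0.18, adjusted p = 0.0175). The sexes did not overlap for either, but both lost their calls without males 1, 2 and 3, which left 1 macrophage gene, and Fcgr1 also without males 3, 4 and 6. Lyz2, lysozyme, had 560.2 to 976 CPM in WT females and 749.7 to 1020 CPM in WT males (adjusted p = 0.452). In the second list Zbtb46, a factor of classical dendritic cells, had 24.1 to 29.2 CPM in WT females and 30.2 to 34.2 CPM in WT males (log2 difference -0.28, SE 0.07, adjusted p = 0.0045). Flt3, the receptor of a dendritic cell growth factor, had a log2 difference of -0.72 (adjusted p = 0.0252) and Cd209a, a lectin of dendritic cells, of -0.45 (adjusted p = 0.0386). The call for Cd209a was lost without WT female 1, 2, 4 or 6 or without WT male 1, 3 or 6 or without WT males 3, 4 and 6 together or without WT males 1, 2 and 3 together, and that for Flt3 without WT female 5 or without WT male 6 or without WT males 3, 4 and 6 together. H2-Aa, an MHC class II chain, had 599 to 708 CPM in WT females and 605 to 985 CPM in WT males and did not pass (adjusted p = 0.142). The count of 4 became 0 without WT males 3, 4 and 6 together, 1 without WT male 6 and 2 without WT female 1, 2, 4, 5 or 6 or without WT male 3.

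No B or plasma cell gene of 18 passed the test or had an unadjusted p under 0.05, and DESeq2 called 0. All 18 had a negative log2 difference (median -0.38). Cd79a, part of the B cell receptor, had 82.9 to 139 CPM in WT females and 64.8 to 247 CPM in WT males. The list summed to 688 to 1296 CPM in WT females and 573 to 2065 CPM in WT males, where it varied 3.61-fold. Of 21 T and NK cell genes, only Thy1 passed, higher by 0.35 log2 units (adjusted p = 0.0274), and fibroblasts and nerves express it as well. The call was lost without WT female 1, 2, 4 or 6 or without WT male 1, 3, 5 or 6 or without WT males 3, 4 and 6 together or without WT males 1, 2 and 3 together. The other 20 genes of the list had a negative log2 difference (list median -0.40), 4 of them at an unadjusted p under 0.05, and 0 were called lower by edgeR or DESeq2. The lower count of 0 became 1 without WT female 4 or 6 or without WT male 6 or without WT males 1, 2 and 3 together, and 2 with a muscle score in the model. Cd4 had 48.7 to 74.5 CPM in WT females and 47.8 to 92.5 CPM in WT males (adjusted p = 0.284).

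Of 21 granulocyte and mast cell genes, 3 (14.3%) were lower and 1, Ltf, was higher. S100a8, S100a9 and Ngp, proteins of neutrophil granules and cytosol, were the 3, and they rested on 1 mouse. S100a8 had 0.661, 0.714, 1.24, 1.29, 0.2205 and 0.426 CPM in WT females 1 to 6, against 1.17, 2.51, 0.578, 0.744, 27.5 and 0.985 CPM in WT males 1 to 6. S100a8 thus had a log2 difference of -2.86 (SE 0.86, adjusted p = 0.0173). WT male 5 held 30.0 CPM of S100a9 and 38.7 CPM of Ngp, and without it none of the 3 passed and 1 gene of the list was lower. Without WT male 4 the lower count was 5. Mcpt4, a protease of connective tissue mast cells, had 37.1 to 81.3 CPM in WT females and 30.7 to 58.9 CPM in WT males (adjusted p = 0.465).

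Secreted mediators were called in both directions. Of 34 cytokines, chemokines and growth factors tested, 4 (11.8%) were higher and 6 (17.6%) lower in WT females. Among all autosomal genes the shares were 14.9% and 9.23%. Cxcl15, a chemokine of glandular and lung epithelium, had 9.75 to 29.6 (median 21.2) CPM in WT females and 5 counts in all 6 WT males (log2 difference 8.94, SE 0.62, adjusted p = 2.03e-09). Cxcl17, a mucosal chemokine, had 79 counts in WT females and 2 in WT males (ratio 95% interval 10.2 to 320 for counting error). Cx3cl1, fractalkine, had 31.7 to 94.5 CPM in WT females and 6.23 to 9.03 CPM in WT males (log2 difference 2.55, SE 0.25, adjusted p = 2.51e-08). Tgfb3 had 50.9 to 106 CPM in WT females and 25.8 to 38.9 CPM in WT males (log2 difference 1.08, SE 0.18, adjusted p = 8.58e-05). Csf1, the growth factor on which macrophages depend, was lower in every WT female (137, 109.7, 141, 112, 130.2 and 128 CPM in WT females 1 to 6, against 167, 179, 173, 159, 149 and 159 CPM in WT males 1 to 6; log2 difference -0.38, SE 0.08, adjusted p = 0.00116). Ccl8, a monocyte chemokine, had a log2 difference of -0.86 (adjusted p = 0.0147; lost without males 1, 2 and 3). Cxcl9, an interferon gamma target, had 19.8 to 39.9 CPM in WT females and 26.6, 30.5, 34.6, 107, 44.3 and 44.1 CPM in WT males 1 to 6. Its call (adjusted p = 0.0159) was lost without WT male 4 and without males 3, 4 and 6. The lower count became 3 without WT female 1, 2, 4 or 5 or without WT male 5 or without WT males 3, 4 and 6 together.

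Of 24 interferon and acute-phase genes, 7 (29.2%) were lower and 2 higher (1 without either set of 3 males). Hp, haptoglobin, which binds free haemoglobin (gene ID 15439, chromosome 8 from 110301759 to 110305804), had 261, 352, 242, 122, 257 and 247 CPM in WT females 1 to 6, against 1460, 1295, 1221, 1179, 1140 and 1841 CPM in WT males 1 to 6. For Hp the log2 difference was -2.46 (SE 0.19, adjusted p = 6.85e-10). C7, a component of the membrane attack complex (gene ID 109828, chromosome 15 from 5017233 to 5093252), is not on that list but was among the 12 genes lower with the smallest p. It had 9.65, 10.1, 11.7, 4.65, 13.6 and 6.43 CPM in WT females 1 to 6, against 399.99, 327, 436, 262, 251 and 302 CPM in WT males 1 to 6. In the model the log2 difference of C7 was -5.14 (SE 0.26, adjusted p = 4.37e-13). The lowest male had 18.4 times the C7 of the highest female. Serpina3n, a protease inhibitor of the acute phase, had 79.3 to 161 (median 119) CPM in WT females and 327 to 545 (median 359) CPM in WT males (log2 difference -1.69, SE 0.17, adjusted p = 6.57e-08). Its near copy Serpina3m, with which it may share reads, had 0.413 to 1.02 CPM in WT females and 3.19 to 6.59 CPM in WT males. Lbp, which presents endotoxin, had 36.9 to 53.4 CPM in WT females and 63.5 to 125 CPM in WT males (log2 difference -1.04, SE 0.21, adjusted p = 0.000598). The metallothionein Mt1 had 31.6 to 42.4 CPM in WT females and 47.5 to 69.1 CPM in WT males. Its relative Mt2, of similar sequence, had 6.305 to 9.99 CPM in WT females and 14.1 to 21.01 CPM in WT males. None of these overlapped. C3, the central complement component, had 2133 to 3909 CPM in WT females and 2834 to 4423 CPM in WT males (adjusted p = 0.736). The defining acute-phase genes Saa1 and Saa2 were too low to be tested.

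**Figure D5:**
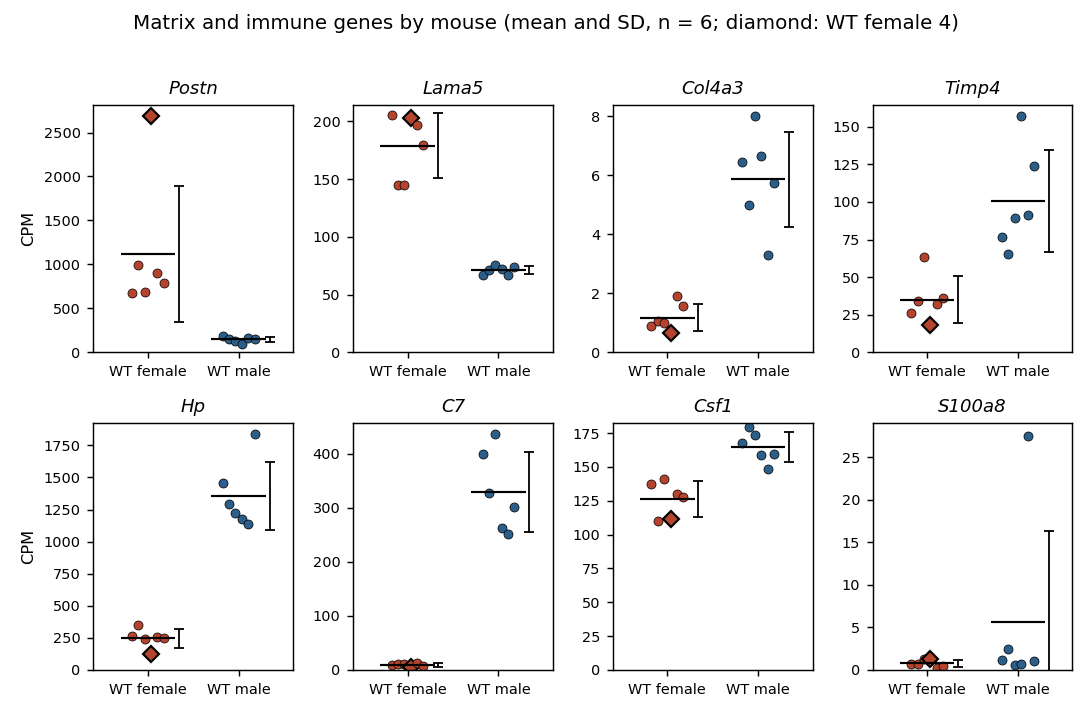
Levels in CPM of 8 matrix and immune genes in each mouse, WT females left and WT males right; points are mice, the line and bar are the mean and SD (n = 6), and the diamond is WT female 4. Postn and Lama5 are higher in every WT female, C7, Hp, Col4a3, Timp4 and Csf1 are lower, and S100a8 is set by WT male 5, where the SD bar runs below 0 and ends at the axis.

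Matrix genes changed in both directions. Of 22 basement membrane genes, 10 (45.5%) were higher and 3 (13.6%) lower in WT females, with 10 and 3 in the Gdf15-KO mice. Among all autosomal genes 14.9% were higher and 9.23% lower in WT females. The WT groups did not overlap for 11 of the 22, against 11.9% of all autosomal genes. Lama5, the laminin alpha chain of epithelial and vascular basement membranes (gene ID 16776, chromosome 2 from 179818166 to 179867712), had 205, 145, 145, 203, 197 and 179.9 CPM in WT females 1 to 6, against 67.1, 71.1, 75.5, 72.5, 66.7 and 74.1 CPM in WT males 1 to 6. Lama5 gave a log2 difference of 1.33 (SE 0.08, adjusted p = 6.3e-12). Lama1 had 5.47 to 44.6 CPM in WT females and 0.0897 to 0.788 CPM in WT males (log2 difference 5.43, SE 0.70, adjusted p = 2.24e-06). The 3 lower genes were Col4a3, Col4a4 and Lamb2. Col4a3, a collagen IV chain of specialised basement membranes (gene ID 12828, chromosome 1 from 82564642 to 82699780), had 0.881, 1.07, 0.991, 0.647, 1.896 and 1.57 CPM in WT females 1 to 6, against 6.45, 4.98, 8.003, 6.65, 3.31 and 5.74 CPM in WT males 1 to 6. The test gave Col4a3 a log2 difference of -2.31 (SE 0.24, adjusted p = 1.04e-07). Col4a4, with which it shares a promoter region and a trimer, followed it at 2.75 to 8.01 CPM in WT females and 9.24 to 21.4 CPM in WT males (log2 difference -1.64, SE 0.25, adjusted p = 2.78e-05). Lamb2, a laminin beta chain, had 252 to 319.9 CPM in WT females and 328 to 498 CPM in WT males. The common chain Col4a1 had 1070 to 1256 CPM in WT females and 1104 to 1625 CPM in WT males (adjusted p = 0.0935).

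Of 21 fibrillar and associated collagens, 6 (28.6%) were higher and 2 (9.52%) lower. Col17a1, the collagen of hemidesmosomes in basal epithelium, had 23.5 to 105 (median 28.7) CPM in WT females and 1.08 to 2.14 (median 1.75) CPM in WT males (log2 difference 4.55, SE 0.40, adjusted p = 6.47e-09). Col14a1, a fibril-associated collagen of fibroblasts, had 199.6 to 339 CPM in WT females and 83.5 to 186 CPM in WT males (log2 difference 1.08, SE 0.17, adjusted p = 2.71e-05). Col16a1 had 62.9 to 291 CPM in WT females and 29.1 to 49.8 CPM in WT males (log2 difference 1.59, SE 0.33, adjusted p = 0.000932). Col3a1, the most abundant, had 2738 to 7422 CPM in WT females and 2926 to 5485 CPM in WT males (adjusted p = 0.848). The higher count became 3 without WT female 4 or without WT males 3, 4 and 6 together, and the lower count 0 without WT males 3, 4 and 6 together and 1 without WT female 2, 3, 4 or 6 or without WT male 3 or 6 or without WT males 1, 2 and 3 together.

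Of 35 proteoglycan, elastic fibre and other matrix protein genes, 12 (34.3%) were higher and 4 (11.4%) lower. Postn, periostin, a matrix protein of stroma under remodelling (gene ID 50706, chromosome 3 from 54268501 to 54298471), had 679.6, 998, 682, 2683, 901 and 783 CPM in WT females 1 to 6, against 185, 149.6, 133, 98.3, 165 and 154 CPM in WT males 1 to 6. Postn thus had a log2 difference of 2.93 (SE 0.31, adjusted p = 1.03e-07). WT female 4 was the highest, and the lowest female had 3.68 times the level of the highest male. Lum, lumican, had 261 to 446 CPM in WT females and 96.4 to 180.03 CPM in WT males (log2 difference 1.35, SE 0.19, adjusted p = 5.62e-06). Gpc6, a glypican, had 42.5 to 71.1 CPM in WT females and 22.2 to 32.4 CPM in WT males (log2 difference 1.02, SE 0.12, adjusted p = 4.24e-07). Sdc1, a syndecan of epithelia, had 48.04 to 104 CPM in WT females and 23.2 to 32.7 CPM in WT males (log2 difference 1.30, SE 0.16, adjusted p = 1.88e-06). Fbn2, fibrillin 2, rested on WT female 4 (0.661, 0.714, 1.404, 38.7, 1.01 and 0.851 CPM in WT females 1 to 6, against 0.2997 to 0.763 CPM in WT males), and without that mouse, or without either set of 3 males, it did not pass. Thbs1, thrombospondin 1, was higher by 1.90 log2 units (adjusted p = 0.00134), also with WT female 4 highest at 288 CPM. Sparc, made by adipocytes and fibroblasts, was lower (1516 to 2769 CPM in WT females and 2184 to 3633 CPM in WT males; log2 difference -0.62, SE 0.18, adjusted p = 0.012; lost without males 3, 4 and 6). Fn1, fibronectin, had 1711 to 2906 CPM in WT females and 1021 to 2390 CPM in WT males (adjusted p = 0.0634). Fn1 passed with DESeq2, with library totals only, with a muscle score in the model and without WT female 1 or 6, WT male 1 or males 1, 2 and 3 (adjusted p = 0.00537 to 0.251 over its alternatives). The lower count of 4 became 2 without WT female 2 or 6 or without WT male 3 or without WT males 3, 4 and 6 together or without WT males 1, 2 and 3 together.

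Of 36 genes that cut, inhibit or assemble matrix, 10 (27.8%) were higher and 8 (22.2%) lower. Mmp15, a membrane-bound metalloproteinase, had 62.9 to 122 (median 68.3) CPM in WT females and 20.8 to 30.8 (median 27.1) CPM in WT males (log2 difference 1.55, SE 0.15, adjusted p = 1.98e-08). Mmp14, its stromal relative, had 199.9 to 357 CPM in WT females and 138 to 214 CPM in WT males (log2 difference 0.83, SE 0.15, adjusted p = 0.000298). P4ha3, a collagen prolyl hydroxylase (log2 difference 3.36, SE 0.52, adjusted p = 2.64e-05), and Adamts18 (log2 difference 4.26, SE 0.70, adjusted p = 6.81e-05) were higher from low levels. Timp4, an inhibitor of metalloproteinases found in fat, was lower in every WT female (25.9, 34.1, 63.7, 17.9, 32.1 and 36.1 CPM in WT females 1 to 6, against 76.7, 65.7, 89.4, 157, 91.3 and 124 CPM in WT males 1 to 6; log2 difference -1.53, SE 0.28, adjusted p = 0.000235). Pcolce, which speeds the trimming of procollagen, had 95.5 to 129.6 CPM in WT females and 161 to 222 CPM in WT males (log2 difference -0.78, SE 0.14, adjusted p = 0.000144). Timp2 had 616 to 1133 CPM in WT females and 749 to 1103 CPM in WT males (adjusted p = 0.75). The counts became 6 without WT males 3, 4 and 6 together for the higher genes and 5 without WT female 1 or without WT male 1 or without WT males 3, 4 and 6 together for the lower genes.

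Of 24 progenitor and fibroblast genes, 4 (16.7%) were higher and 4 (16.7%) lower, against 14.9% and 9.23% of all autosomal genes. Pdgfra, the receptor that marks adipocyte progenitors, had 152 to 251 CPM in WT females and 101 to 165 CPM in WT males (log2 difference 0.63, SE 0.14, adjusted p = 0.00136). Cd9, a tetraspanin of progenitors and of epithelium, had 127 to 219.9 (median 141) CPM in WT females and 53.99 to 70.3 (median 57.4) CPM in WT males (log2 difference 1.35, SE 0.13, adjusted p = 1.78e-08). Vit, vitrin, was lower (3.68 to 9.6999 CPM in WT females and 10.1 to 17.3 CPM in WT males; log2 difference -0.88, SE 0.21, adjusted p = 0.00298). Pi16, of the most immature progenitors, had 264 to 473 CPM in WT females and 285 to 544 CPM in WT males (adjusted p = 0.603). The lower count became 0 without WT males 1, 2 and 3 together and 2 without WT female 4 or 6 or without WT male 1 or 3 or without WT males 3, 4 and 6 together. Of 22 endothelial genes 5 (22.7%) were lower and 0 higher. The higher count was 1 without WT male 1 or 3 and 2 without WT female 2 or without WT males 1, 2 and 3 together. Plvap, of fenestrated endothelium, had 112, 82.99, 97.9, 92.1, 96.6 and 108 CPM in WT females 1 to 6, against 130.4, 133, 139, 124, 148 and 134 CPM in WT males 1 to 6. For Plvap the log2 difference was -0.46 (SE 0.08, adjusted p = 0.000152). Tie1 had 72.2 to 91.1 CPM in WT females and 99.3 to 105 CPM in WT males (log2 difference -0.31, SE 0.08, adjusted p = 0.004). Cdh5, the cadherin of endothelial junctions, had a log2 difference of -0.32 (adjusted p = 0.00941; lost without males 3, 4 and 6). Cldn5, of their tight junctions, had one of -0.67 (adjusted p = 0.00588).

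Of 14 Schwann cell and nerve genes, 5 (35.7%) were lower and 2 (14.3%) higher. Sox10 and Erbb3, which mammary epithelium also expresses, were the 2 higher genes. Sox10 had 26.03, 23.5, 33.9, 115, 28.1 and 32.6 CPM in WT females 1 to 6, against 6.597, 5.16, 8.85, 4.81, 4.96 and 4.67 CPM in WT males 1 to 6. In the model the log2 difference of Sox10 was 2.89 (SE 0.39, adjusted p = 4.75e-06). Erbb3 had 54.3 to 117 CPM in WT females and 7.37 to 9.34 CPM in WT males (log2 difference 3.23, SE 0.17, adjusted p = 6.48e-13). Foxd3, a neural crest factor, had 0.283 to 0.702 CPM in WT females and 0.744 to 1.95 CPM in WT males (log2 difference -1.27, SE 0.26, adjusted p = 0.000836). The lower count became 2 without WT males 1, 2 and 3 together and 3 without WT female 4. No gene of 17 in skeletal muscle passed the test (2 were lower at an unadjusted p under 0.05, and 1 by DESeq2; median log2 difference -0.70). Myh4, the myosin of fast fibres, had 2667, 2414, 2934, 1375, 5124 and 3.23 CPM in WT females 1 to 6 and 12368, 7877, 5116, 48.2, 149 and 1075 CPM in WT males 1 to 6. It varied 1585-fold among WT females and 257-fold among WT males. None of 6 red cell genes passed in WT mice, with 0 at an unadjusted p under 0.05 and 0 by DESeq2, and 5 were lower in the Gdf15-KO females. Hba-a2, an alpha globin that shares its sequence with another copy, had 133 to 444 CPM in WT females and 186 to 336 CPM in WT males (adjusted p = 0.607).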

How the data were processed

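The deposited table holds expected counts per gene, which the authors had made from paired reads of total sWAT RNA sequenced by BGI, aligned with Bowtie2 2.2.5 to GRCm39 and summed by RSEM 1.2.8 (per the submitters' processing notes). RSEM splits reads between similar genes; whether strand was used is not given in the sources used here. It has 19175 genes and 24 mice; no column of values lacked a sample.

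Expected counts were rounded, and 14982 genes passed filterByExpr, set to a count of 10 and a total of 15 over the 4 groups. After TMM scaling, the group means were estimated together by quasi-likelihood in edgeR 4.0.16 (R 4.3.3), and p-values were adjusted by Benjamini-Hochberg over all genes tested. Log2 differences are females minus males as fitted by edgeR with its default prior count. The SE is the log2 difference over the root of its F statistic. A prior count of 2 was used only for log2 CPM values, such as those behind the covariate scores and the correlations between mice. Genes were called at an adjusted p under 0.05. The p-values set a difference between group means against the spread between mice within groups, estimated over all 24 mice. With each genotype fitted alone, 1886 autosomal genes were higher and 1109 lower in WT females. The sum of counts per mouse limits precision only for low genes. Positions are of GENCODE release M39 and chromosomes of RefSeq.

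Members and lists were chosen with earlier results of these data known. Named genes were the 12 higher and 12 lower with the smallest p, up to 3 called members of each list and the highest that did not pass, and the steroid, pituitary and adrenergic receptors (146 genes); 57 others were singled out after their values were seen. Some genes that these choices named are not reported here. Alternatives were DESeq2 1.42.0, limma-voom (3.58.1), other scalings, filters and thresholds, each genotype alone, muscle and B cell scores as covariates, a block on the replicate number, and leaving out mice. Simulated data with known changes served to test the scripts.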

Additional observations from a re-analysis of the deposited data

Results flagged for a closer look

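Of 406 groups of 6 mice (203 named genes in WT females and in WT males), 57 (14%) had a mouse whose gap to its nearest neighbour took more of the group's range than the 95% critical value of Dixon's test allows. Chance gives about 1 group in 20 where values are normally distributed. Groups of nearly all 0, such as Sult1e1 in WT females and Krt15 in WT males, do not meet that condition. Among the genes named by the rule the share was 13% (38 of 292), and many of these genes vary together, so the groups are not independent. WT female 4 was the mouse in 35 of the 57, WT male 4 in 7, and WT female 6, WT male 2 and WT male 5 in 3 each. No difference between the sexes in WT mice was found to differ from that in Gdf15-KO mice.

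WT female 4 stood above the other mice of its sex for Fads2 at 166 CPM with 74.4 CPM next, Vdr at 48.9 CPM with 16.5 CPM next, Krt17 at 62.1 CPM with 16.1 CPM next, Krt14 at 163 CPM with 47.5 CPM next, Krt5 at 297 CPM with 91.7 CPM next and Mylk at 183 CPM with 104 CPM next. It was also the highest for S100a9 at 1.42 CPM with 0.681 CPM next, Cx3cl1 at 94.5 CPM with 39.7 CPM next, Col17a1 at 105 CPM with 31.6 CPM next, Col16a1 at 291 CPM with 78.8 CPM next, Postn at 2683 CPM with 998 CPM next and Mmp15 at 122 CPM with 76.6 CPM next. This mouse had the top level too for Adamts18 at 29.5 CPM with 4.86 CPM next, Cd9 at 219.9 CPM with 144 CPM next, Sox10 at 115.5 CPM with 33.9 CPM next, Epcam at 214 CPM with 91.2 CPM next, Elf5 at 64.1 CPM with 15.85 CPM next and Krt15 at 57.8 CPM with 8.66 CPM next. It came out above the rest for Wfdc18 at 102.9 CPM with 12.6 CPM next, Calca at 106 CPM with 2.51 CPM next, Tgfb3 at 106 CPM with 65.3 CPM next, Mt2 at 9.99 CPM with 7.401 CPM next, Sparc at 2769 CPM with 1894 CPM next and Thbs1 at 288 CPM with 70.0 CPM next. This mouse lay above its group for Fbn2 at 38.7 CPM with 1.404 CPM next and Lama1 at 44.6 CPM with 8.81 CPM next. WT female 4 was below the other mice of its sex for Hp at 122 CPM with 242 CPM next, Cers4 at 20.7 CPM with 27.6 CPM next, Gpat4 at 149 CPM with 186 CPM next, Pde3b at 176 CPM with 265 CPM next, Mccc2 at 40.7 CPM with 59.1 CPM next and Cfd at 2500 CPM with 5250 CPM next. It had the least as well for Rxra at 176 CPM with 257 CPM next, Ghr at 381 CPM with 533 CPM next and Lpl at 3116 CPM with 5290 CPM next.

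WT male 4 stood above the other mice of its sex for Hk1 at 81.1 CPM with 70.6 CPM next, Dmbt1 at 2.32 CPM with 0.293 CPM next, Sdc1 at 32.7 CPM with 26.2 CPM next, Krt15 at 0.0437 CPM with 0 CPM next, Greb1 at 0.438 CPM with 0.196 CPM next and Cxcl9 at 107 CPM with 44.3 CPM next. WT male 4 was below the other mice of its sex for Acsl1 at 1072 CPM with 1824 CPM next. WT male 2 was below the other mice of its sex for Otop1 at 5.65 CPM with 14.3 CPM next, Ghr at 531 CPM with 644 CPM next and Npr3 at 123 CPM with 367 CPM next. WT female 6 stood above the other mice of its sex for Flt3 at 19.5 CPM with 13.4 CPM next and Cd4 at 74.5 CPM with 57.05 CPM next. WT female 6 was below the other mice of its sex for Myh4 at 3.23 CPM with 1375 CPM next. WT male 5 stood above the other mice of its sex for Ltf at 24.1 CPM with 3.05 CPM next, S100a8 at 27.5 CPM with 2.51 CPM next and Lcn2 at 10.7 CPM with 2.11 CPM next. WT female 2 stood above the other mice of its sex for Sult1e1 at 0.0892 CPM with 0 CPM next. WT female 2 was below the other mice of its sex for Ptn at 119 CPM with 179 CPM next. WT female 1 stood above the other mice of its sex for Spp1 at 3.66 CPM with 1.72 CPM next and Greb1 at 20.4 CPM with 4.14 CPM next. WT male 6 stood above the other mice of its sex for Serpina3n at 545 CPM with 374 CPM next. WT female 3 stood above the other mice of its sex for Idh2 at 111 CPM with 94.01 CPM next.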

How the results depend on the processing

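Depth limits genes with few counts, such as Sult1e1 in females and Krt15 in males, to intervals rather than folds. Leaving out 1 mouse moved the number of autosomal genes higher in WT females between 1827 and 2183 and the number lower between 984 (without WT female 4) and 1475. At least 2-fold, the ranges were 773 to 906 higher and 138 to 173 lower, and in the Gdf15-KO mice 2410 to 2675 higher and 2036 to 2286 lower, while the interaction stayed at 0. Leaving out 3 muscle-rich WT males left 846 genes lower, and an adjusted p under 0.01 left 576 (1092 in the Gdf15-KO mice). A filter of 10 counts in every sample left 421 genes at least 2-fold higher and 96 lower, since it removes genes near 0 in 1 sex. Scaling by library totals alone gave 1220 genes lower in the Gdf15-KO females and moved the share of WT calls that were higher to 70.1% from 61.7%. DESeq2 called 2223 genes higher and 1596 lower.

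Female and male numbers are shared in the labels, and what they mark is not stated. The correlation of same-numbered mice ran from -0.56 to 0.27, over 0.1 in 4 of 6 pairs. Of 6 females, 2 correlated best with the male of their number. So few values cannot show whether a litter, a cage or a day was shared. The main test did not pair the mice. With the replicate number as a block 2038 genes were higher and 1340 lower in WT females (at least 2-fold 830 and 137), 2528 and 2055 in the Gdf15-KO mice, and the interaction had 0. Fabp4, Cd209a, S100a8, S100a9, Ngp, Calca and Fbn2 were the 7 called genes among those named that did not pass with the block, and 4 T and NK cell genes were lower with it.

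Of 203 named genes 158 were called, of which 34 lost the call under at least 1 alternative. The other 124 kept it under every alternative in which they were tested. The filter of 10 counts in every sample left out named genes near 0 in 1 sex, which were not tested there. Calls for S100a8, S100a9, Ngp, Calca, Fbn2, Npr3 and Cpt1b were lost with limma-voom. Those for Lpl, Gpat4, Pde3b, Cd209a, Cxcl9, Npr3 and S100a8 were lost with each genotype alone. A B cell score in the model removed those for S100a8, S100a9, Ngp and Fbn2. Lpl was also lost with no filter and with 10 counts in every sample, and Cd209a with library totals only. Another 5 genes passed under at least 1 alternative only. Of 70 list counts 43 moved by over 1.5 times under at least 1 alternative. The log2 difference of 13 genes changed sign, none of them called, and the cause was not tested. Over the removals of 1 mouse the log2 differences ran for Scd1 from -0.042 to 0.097, Dgat2 from -0.15 to 0.083, Rxra from -0.15 to 0.0066, Adipor2 from -0.073 to 0.055, Ctsd from -0.069 to 0.050, C3 from -0.13 to 0.025, Col3a1 from -0.20 to 0.20, Timp2 from -0.19 to 0.0036 and Pmp22 from -0.15 to 0.0076. Without WT males 1, 2 and 3 they were Scd1 -0.021, Aldoa 0.47, Adipor2 0.052, Ctsd 0.0026, C3 0.13, Timp2 0.080, Pi16 0.15, Myh4 2.51 and Pmp22 0.011, and without WT males 3, 4 and 6 Dgat2 0.0047 and Krt10 -0.13. Ctsd had 0.037 with library totals only, 0.0092 with at least 10 counts in every sample, 0.0048 with limma-voom, 0.0049 with each genotype alone, 0.0029 with the skeletal muscle score as a covariate and 0.0034 with the replicate block. Elsewhere the values were Adipor2 0.022 with library totals only, Col3a1 -4e-04 with limma-voom and Col3a1 -0.094 with B and plasma cell score as a covariate.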
